A study of Homo sapiens with 18 samples.

Results

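The comparison described here follows ECV304 cells, stimulated with interleukin-1β (IL-1β) in the presence of aminaphtone, from 3 h to 6 h of incubation. Its members are 6 of the 18 arrays of the series: the 3 labelled as aminaphtone at 6 h against the 3 labelled as aminaphtone at 3 h. All 18 arrays came from confluent, serum-starved ECV304 cells that had received recombinant IL-1β at 100 IU/ml. The cells of 9 arrays also received aminaphtone at 6 µg/ml, and those of the other 9, called the control here, received the same volume of medium. Each treatment was sampled at 1, 3 and 6 h with 3 arrays a group, which the series describes as independent replicates. No group without IL-1β was analysed here, so a change from 3 to 6 h is a change during continued stimulation. RNA was hybridised to Affymetrix Human Gene 1.0 ST arrays, whose transcript clusters are sets of probes spread over a gene. Every value below is a log2 signal, and a difference of 1 on that scale is a 2-fold change.

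IL-1β binds its receptor and acts through the adaptor MYD88 and the IRAK kinases. It thereby activates NF-κB and the mitogen-activated protein kinases, which switch on chemokines, adhesion molecules and their own inhibitors. This response starts with short-lived immediate early transcripts and moves on to secreted proteins such as matrix metalloproteinases. Aminaphtone is a naphthohydroquinone derivative used as a capillary-protective drug.

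The labels call ECV304 endothelial with epithelial features as well; the line is widely known to be misidentified and to derive from a bladder carcinoma. Of 17 endothelial markers on the array, 9 passed the low-signal filter used for testing, a mean log2 signal above 6.19. The endothelial genes PECAM1 (mean 5.30 over the 18 arrays), TEK (5.30), KDR (5.45), ERG (5.30) and VWF (6.03) did not pass it. FLT1, EMCN and MMRN1 did not pass either. The 9 that passed were ENG (9.20), ESAM (8.82), EGFL7 (8.41), CLDN5 (7.73), PLVAP (7.47), ROBO4 (7.11), CDH5 (6.99), NOS3 (6.80) and TIE1 (6.40). Of 18 urothelial and epithelial markers, 17 passed, among them the keratins KRT7 (11.36), KRT8 (12.38) and KRT18 (11.75), the highest of the list. The urothelial genes UPK1A (7.19), UPK2 (7.09), UPK1B (6.83), GATA3 (6.65) and UPK3A (6.51) and the epithelial gene CDH1 (6.53) lay closer to the filter. KRT20 (5.56) did not pass. Of 9 leukocyte markers on the array, 5 passed: CD68 (8.65), TYROBP (8.49), LCP1 (8.48), CD14 (6.90) and ITGAM (6.39). The leukocyte genes PTPRC (3.63), LYZ, FCER1G and CD3E did not. In the arrays compared, the mean over the endothelial markers was 6.34 to 6.48 at 3 h and 6.40 to 6.56 at 6 h, so these ranges overlapped. The mean over the urothelial and epithelial markers was 7.95 to 8.24 at 3 h and 7.84 to 7.88 at 6 h, so every 6 h array lay below every 3 h array. No marker of either list passed the test below, and the part of these shifts in the other results was not tested. Signals correlated across transcript clusters at r = 0.975 to 0.992 among the 3 aminaphtone arrays at 3 h, at 0.983 to 0.996 among those at 6 h and at 0.889 to 0.963 among the control arrays at 1 h, which stood furthest apart.

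Between 3 and 6 h with aminaphtone, MMP1, SLC7A2, STC2 and MTSS1 rose by 1.59-fold to 2.89-fold, and ANGPTL4, IDI1, TMEM88 and KDM6B led a longer list of genes that fell. Of 15796 transcript clusters tested with limma, 42 (0.266%) passed an adjusted p of 0.05 (Benjamini-Hochberg). 4 of them (0.0253%) were higher and 38 (0.241%) were lower at 6 h. In all 42 the 3 arrays at 3 h and the 3 at 6 h did not overlap, which was also true of 1054 clusters in the higher direction (6.67% of those tested) and of 2156 in the lower direction (13.6%). At an unadjusted p under 0.05 there were 1551 clusters (9.82%), 334 higher and 1217 lower. The median difference over all clusters was 0.0034.

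The count depended on which arrays estimated the spread, since all 6 groups shared it. A fit of these 6 arrays alone called 164 clusters. In an alternative chosen after the data were seen, 406 were called without the 3 control arrays at 1 h. Leaving out 1 array at a time gave 4 to 7 calls without aminaphtone 3 h replicate 1 or 2 or any aminaphtone 6 h array, and 18 to 24 without any aminaphtone 1 h or control 6 h array or control 3 h replicate 3. It gave 83 to 260 calls without control 1 h replicate 1 or 2 or control 3 h replicate 1 or 2. Of the 20 named genes that passed, IDI1, TMEM88 and STC2 did so without each of the 18 arrays in turn. The other 17 reached their highest adjusted p, 0.0753 for MMP1 and 0.171 to 0.366 for the rest, without aminaphtone 3 h replicate 2.

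The largest rise was in MMP1, the interstitial collagenase that cleaves fibrillar collagens. Its signals were 6.88, 6.70 and 7.02 in the 3 arrays at 3 h and 8.42, 8.31 and 8.48 at 6 h. All 6 h arrays lay well above all 3 h arrays. The difference was 1.53 ± 0.22 (standard error, SE), or 2.89-fold, with an adjusted p of 0.00667 (limma, Benjamini-Hochberg). In bulk RNA, a change in the number of cells that express a gene and a change in RNA per cell cannot be told apart, here or below.

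STC2 encodes stanniocalcin 2, a secreted glycoprotein. Its signals were 7.21, 6.69 and 6.98 at 3 h and 8.26, 8.16 and 8.20 at 6 h, a difference of 1.24 ± 0.17 (SE; 2.37-fold, adjusted p 0.00472). The 6 h arrays lay close together and above every 3 h array. SLC7A2, a transporter of cationic amino acids such as arginine, had 7.73, 7.25 and 8.22 at 3 h and 8.98, 9.18 and 9.34 at 6 h. Its groups did not overlap, though the 3 h arrays spanned nearly a unit, and the difference was 1.44 ± 0.27 (SE; adjusted p 0.0400). MTSS1, a protein that links the actin cytoskeleton to membranes, went from 6.76, 6.76 and 6.61 to 7.39, 7.29 and 7.44. This was the smallest of the 4 rises, at 0.67 ± 0.12 (SE; 1.59-fold, adjusted p 0.0341).

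**Figure D1:**
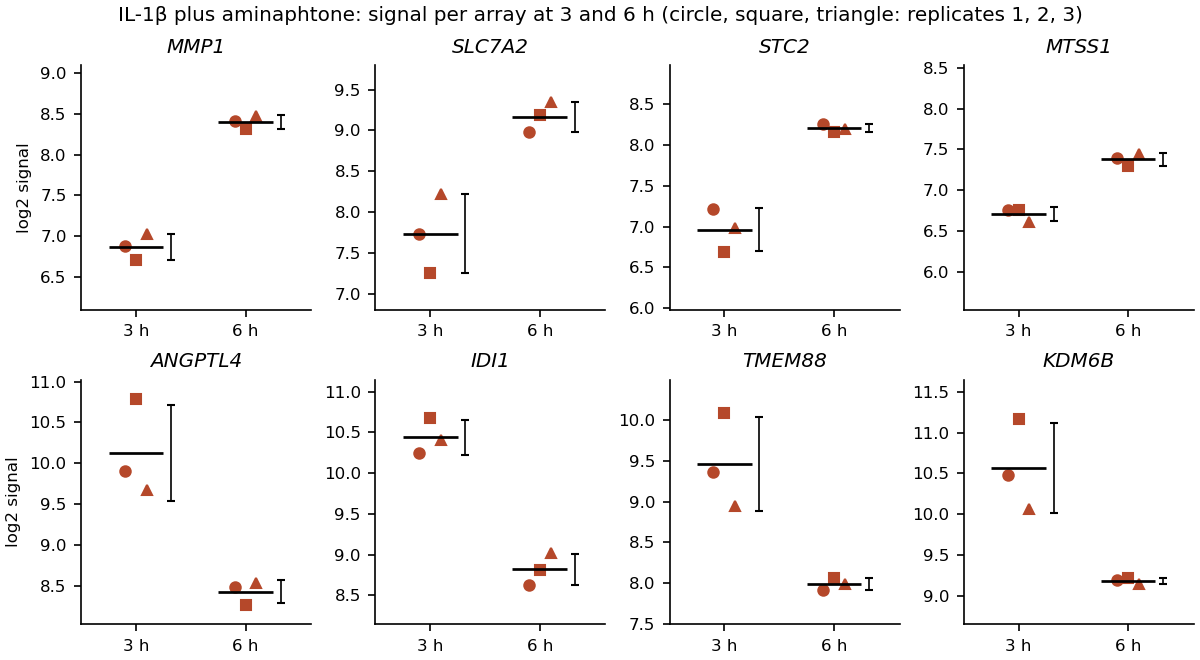
Signal (log2) of the 4 genes that rose and the 4 with the largest falls among clusters past the threshold, in each aminaphtone array at 3 and 6 h. Points are arrays, horizontal lines are group means and bars are ± 1 SD (n = 3); in every panel the groups do not overlap, and in the lower row the 3 h arrays spread more widely than the 6 h arrays.

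Among the genes that fell, ANGPTL4, a secreted inhibitor of lipoprotein lipase, changed most. Its signals were 9.91, 10.79 and 9.67 at 3 h and 8.48, 8.26 and 8.53 at 6 h, a fall of 3.24-fold (log2 difference -1.70 ± 0.32 SE, adjusted p 0.0356). Replicate 2 stood highest at 3 h, and the groups did not overlap. TMEM88, a membrane protein known as an inhibitor of Wnt signalling, had 9.36, 10.08 and 8.95 at 3 h and 7.92, 8.07 and 7.98 at 6 h. Its difference was -1.47 ± 0.21 (SE; adjusted p 0.00667), and again replicate 2 was the highest array at 3 h. KDM6B, a histone demethylase, had 10.48, 11.16 and 10.06 at 3 h and 9.19, 9.22 and 9.14 at 6 h, a difference of -1.38 ± 0.27 (SE; adjusted p 0.0442).

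MAP2K3, the kinase that activates p38, was at 11.33, 11.73 and 11.06 at 3 h and at 10.05, 10.19 and 10.17 at 6 h, with a difference of -1.24. The transcription factor NFATC1 was at 11.03, 11.36 and 10.73 at 3 h and at 9.95, 9.83 and 9.71 at 6 h, with a difference of -1.21 (adjusted p 0.0182). TRAF3IP2, the adaptor of the interleukin-17 receptor, fell from 9.60, 9.93 and 9.54 to 8.77, 8.85 and 8.86. In these genes every 6 h array lay below every 3 h array. CD83, a surface protein of the immunoglobulin family, fell by 0.90 (adjusted p 0.0356), and ANKRD1, an ankyrin repeat protein, fell by 1.08 (adjusted p 0.0480). DNAJB1, a co-chaperone of the heat shock protein family, fell by 1.18, from 9.98 ± 0.34 to 8.80 ± 0.12 (SD, n = 3; adjusted p 0.0204). The glutaredoxin gene GLRX, which reduces protein disulphides formed with glutathione, fell by 1.01 (adjusted p 0.0204), and CMBL, a hydrolase, fell by 1.04 (adjusted p 0.0442). TMEM217 fell by 0.96 and YPEL1 by 0.89 (adjusted p 0.0231 for both), and TKT, the transketolase of the pentose phosphate pathway, by 0.66 (adjusted p 0.0481). Of the 38 clusters that were lower, 35 carried a single gene symbol. The 19 of these not named here fell by 0.53 to 0.84.

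The genes that fell had different histories before 3 h. TRAF3IP2 was at a mean of 7.85 at 1 h, 9.69 at 3 h and 8.83 at 6 h with aminaphtone. TMEM217 was at 5.79, 7.20 and 6.24, MAP2K3 at 10.27, 11.37 and 10.14, and NFATC1 at 10.03, 11.04 and 9.83 at the same times, so these genes were highest at 3 h. IDI1 was at 11.28, 10.44 and 8.82, CD83 at 10.50, 9.79 and 8.89, and GLRX at 7.29, 6.63 and 5.62. These were highest at 1 h and lower at each later time. The 3 h arrays enter both intervals, so these courses are given side by side without a test.

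Genes of the mevalonate and cholesterol pathway lay lower at 6 h as a group. This pathway turns acetyl-CoA into isoprenoids and sterols and is switched by the SREBP transcription factors. Of 22 genes tested, 2 passed in the lower direction (0.241% of all clusters did) and none in the higher. A negative difference was present in 20, against 7773 of all 15796 clusters tested. The median was -0.54, against 0.0034 over all clusters. In 14 of the 22 the 6 h arrays all lay below the 3 h arrays, where the share over all clusters was 13.6%. IDI1, the isomerase that makes dimethylallyl diphosphate, had 10.25, 10.67 and 10.40 at 3 h and 8.63, 8.81 and 9.02 at 6 h. All its 6 h arrays lay more than a unit below all its 3 h arrays, and it fell by 1.62 ± 0.20 (SE; 3.07-fold, adjusted p 0.00294). ACAT2, the cytosolic thiolase that joins acetyl-CoA units, had 10.53, 10.65 and 10.23 at 3 h and 9.64, 9.56 and 9.62 at 6 h. It fell by 0.86 ± 0.13 (SE; adjusted p 0.0138), with no overlap. MVD, the mevalonate diphosphate decarboxylase, had a difference of -0.68 (adjusted p 0.101) and LSS, lanosterol synthase, had -0.65 (adjusted p 0.169). MYLIP, the ubiquitin ligase that degrades the LDL receptor, had a difference of -0.53 (adjusted p 0.152). The 13 genes of fatty acid synthesis and desaturation had a median of -0.42, and none passed. Among them FADS1, a fatty acid desaturase, had -0.62 (adjusted p 0.0716) and SCD, the stearoyl-CoA desaturase, had -0.49 (adjusted p 0.108).

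Over the control arrays, which share none with this comparison, the cholesterol pathway had nearly the same median, -0.49. IDI1 differed there by -1.64 (adjusted p 0.000820), and the difference between its changes with and without aminaphtone was 0.02 ± 0.28 (SE).

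Cell cycle genes had differences of opposite sign by phase, and none of them passed the test. Of 29 genes of G2 and mitosis, 22 had a positive difference, against 8023 of all 15796 clusters tested. Their median was 0.33. In 9 of the 29 the 6 h arrays all lay above the 3 h arrays, against 6.67% of all clusters. PLK1, a mitotic kinase, had 10.94, 10.50 and 10.18 at 3 h and 11.48, 11.39 and 11.13 at 6 h. Its groups did not overlap, and its difference was 0.79 (adjusted p 0.178); the difference of NEK2, a centrosomal kinase, was 0.58 (adjusted p 0.276). Of 37 genes of S phase and DNA replication, 34 had a negative difference, against 7773 of all 15796 clusters. Their median was -0.25. CDC45, a component of the replicative helicase, had -0.62 (adjusted p 0.101) and MCM7, a subunit of the same helicase, had -0.54 (adjusted p 0.133). The control medians were 0.28 and -0.27. The 57 histone genes had a median of -0.22, with a control median of -0.29, and 28 of them had 6 h arrays all below the 3 h arrays, against 13.6% of all clusters.

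Among the gene lists closest to IL-1β signalling, of 23 genes of NF-κB subunits and feedback, 23 cytokines and chemokines, and 19 adhesion molecules, none passed, with medians of -0.22, -0.09 and -0.15. With 0.266% of all clusters called, lists of this size would hold few calls or none, so nothing is read from that count. IL6 had signals of 12.57, 12.77 and 12.54 at 3 h and 12.70, 12.78 and 12.81 at 6 h, and these overlapped. The chemokine gene CXCL8 had 12.51, 12.79 and 12.79 at 3 h and 12.20, 12.51 and 12.54 at 6 h, and these overlapped at the edge. CCL2, the monocyte chemoattractant, had 12.73, 12.84 and 12.77 at 3 h and 12.53, 12.47 and 12.53 at 6 h. ICAM1, an adhesion molecule that binds leukocyte integrins, had 13.23, 13.32 and 13.17 at 3 h and 12.95, 12.94 and 12.89 at 6 h. Their groups did not overlap, but their differences of -0.27 and -0.31 had adjusted p of 0.710 and 0.362. These signals lie near the top of the scale, which ended at 14.20 to 14.25 in the 6 h arrays. NFKBIA, the inhibitor of NF-κB, had -0.32 (adjusted p 0.235), NFKBIE had -0.71 (adjusted p 0.165), and the endothelin gene EDN1 had -0.01 (adjusted p 0.994). SELE, E-selectin, had 0.13 (adjusted p 0.902) and PTGS2, the inducible cyclooxygenase, had -0.15 (adjusted p 0.885).

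Of 35 immediate early genes none passed, and 31 had a negative difference, against 7773 of all 15796 clusters. The median was -0.33, with a control median of -0.27. In 18 of these genes the 6 h arrays all lay below the 3 h arrays, against 13.6% of all clusters. ZFP36, which speeds the decay of cytokine mRNAs, had -0.90 (adjusted p 0.101), and the transcription factor MAFF had -0.92 (adjusted p 0.0865). This median moved to -0.20 without aminaphtone 3 h replicate 2.

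Matrix proteases and their inhibitors had MMP1 as the single call among 15 genes tested and a median of 0.01. MMP3, stromelysin, had 6.08, 6.05 and 6.52 at 3 h and 7.20, 7.29 and 7.62 at 6 h, a difference of 1.16 ± 0.26 (SE) with an adjusted p of 0.0852. Its groups did not overlap, nor did those of MMP10, with a difference of 0.56 (adjusted p 0.213), and MMP7, with 0.75 (adjusted p 0.379).

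Of 29 targets of NRF2 and antioxidant genes, TKT passed in the lower direction, and the median was -0.12. AKR1C3, an aldo-keto reductase, had a larger difference, -1.21, but an adjusted p of 0.0560. HMOX1, haem oxygenase, had -0.61 (adjusted p 0.115), NQO1, a quinone reductase, -0.31 (adjusted p 0.258), and PGD, the phosphogluconate dehydrogenase, -0.58 (adjusted p 0.0870). Of 17 heat shock protein genes DNAJB1 passed, with a list median of 0.01; HSPB1 had -0.52 (adjusted p 0.108). No gene passed in the lists of the unfolded protein response (29 tested), p53 targets (21), growth factors and receptors (24), interferon-stimulated genes (20), TGF-β and BMP signalling (28), ribosomal proteins (64) or small nuclear and nucleolar RNAs (151).

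**Figure D2:**
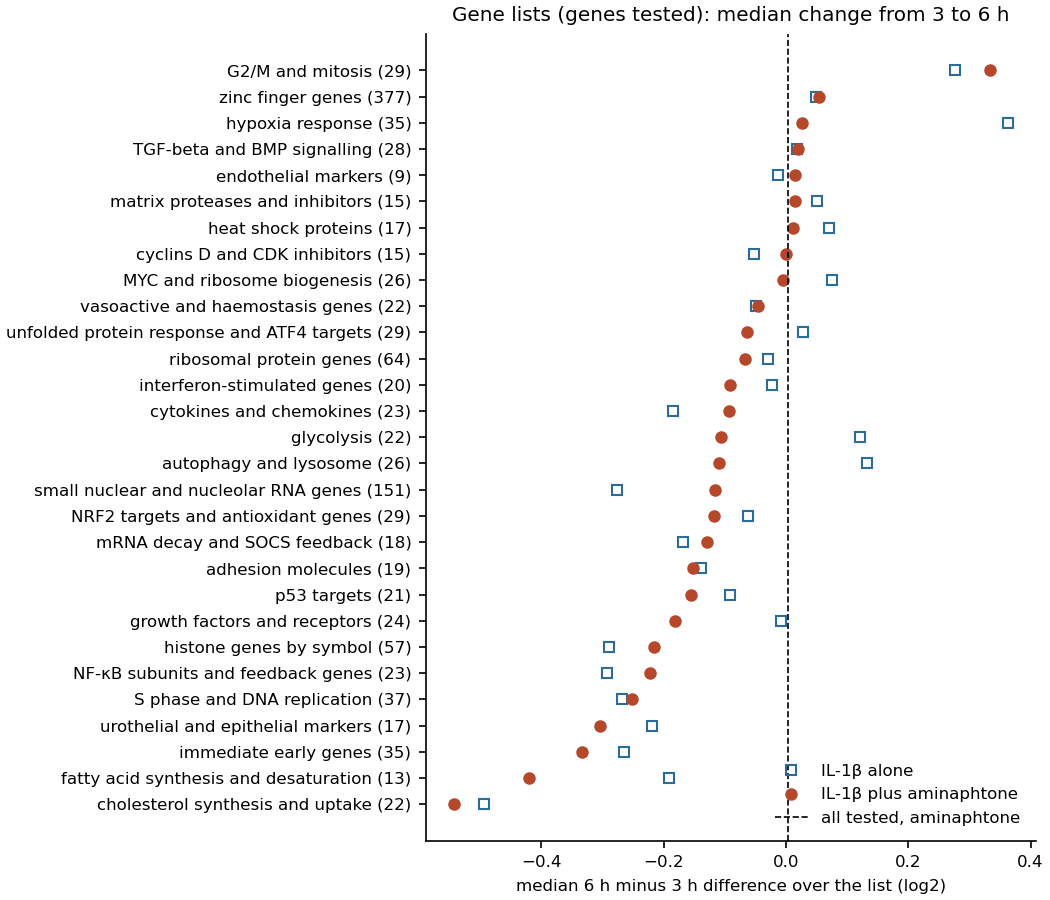
Median difference from 3 to 6 h (log2) over each gene list with more than 6 genes tested, with aminaphtone (circles) and with IL-1β alone (open squares); the dashed line is the median of all clusters tested with aminaphtone. The cholesterol list lies lowest in both, at -0.54 and -0.49. The hypoxia and glycolysis lists lie further right in the control, at 0.36 and 0.12 against 0.03 and -0.11. Other lists also do, among them autophagy and lysosome (0.13 against -0.11) and fatty acid synthesis and desaturation (-0.19 against -0.42).

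The same interval in the control arrays shows which of these changes also occurred without aminaphtone. There, 55 clusters were higher (0.348%) and 26 lower (0.165%) at 6 h. The 4 clusters higher with aminaphtone were all higher in the control, 3 of them past the threshold: MMP1 (2.13, adjusted p 9.4e-05), STC2 (1.94, adjusted p 2.6e-05) and MTSS1 (0.58, adjusted p 0.0467). SLC7A2 had 1.13 there (adjusted p 0.0797). The 38 clusters lower with aminaphtone were all lower in the control and 14 passed there, with medians of -0.80 and -0.62. Without aminaphtone 3 h replicate 2 the 38 lower calls became 3, as also without aminaphtone 6 h replicate 2. The 26 of the control became 1 without control 3 h replicate 2 or control 6 h replicate 1. At 3 h, deviations of same-numbered arrays from their group means correlated between treatments at -0.106, 0.519 and -0.0106. Whether the shared falls rest on replicate 2 was not tested. Read from the other side, the 26 clusters lower in the control had medians of -0.85 in both treatments, and 14 passed with aminaphtone. The 55 clusters higher in the control had a median of 0.86 there and 0.33 with aminaphtone, where 52 were positive and 3 passed. Each set was chosen by the values of its own treatment, so its medians are a description and were not tested against each other.

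**Figure D3:**
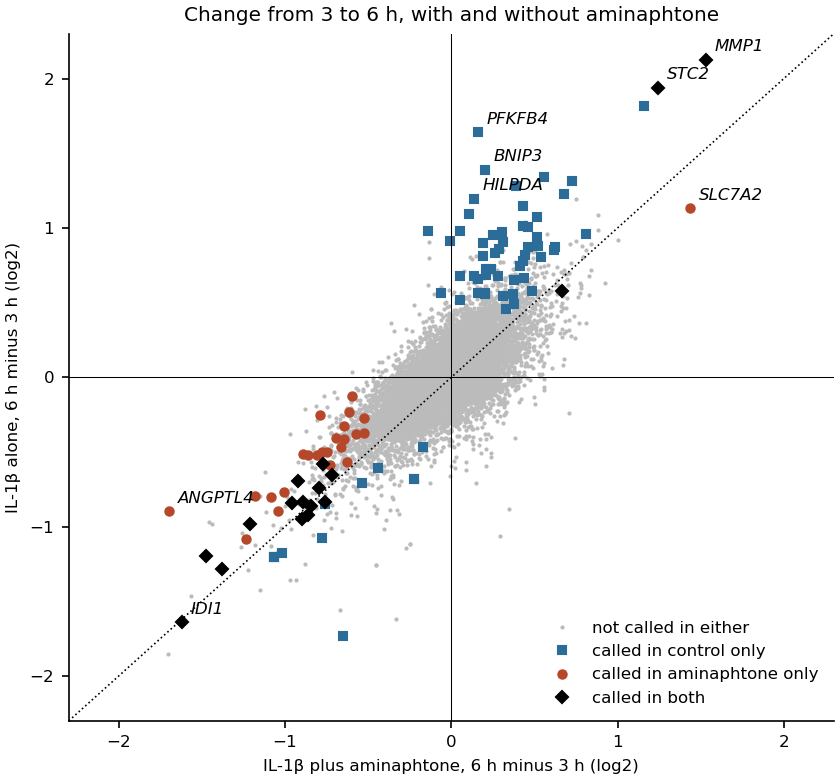
Difference between 6 and 3 h (log2) of each cluster tested, with aminaphtone (horizontal axis) against IL-1β alone (vertical axis); colours mark clusters past an adjusted p of 0.05 in either treatment, and the dotted line marks equal differences. MMP1, STC2 and IDI1 lie far out in both, whereas PFKFB4 and BNIP3 lie at 1.64 and 1.39 in the control and at 0.16 and 0.20 with aminaphtone.

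The difference between the intervals was tested directly, as the change with aminaphtone minus the change in the control. 2 clusters passed, both with a lower change under aminaphtone (0.0127% of those tested): PFKFB4 and BNIP3. None passed in the other direction, and at an unadjusted p under 0.05 there were 162 clusters (1.03%), 135 lower and 27 higher. That share is below the 0.05 that tests without any true difference would give on average, so nothing is read from these counts. PFKFB4 and BNIP3 are induced by hypoxia-inducible factor (HIF) in low oxygen. HIF binds a short core motif in promoters and enhancers and is held down in normal oxygen by prolyl hydroxylases. PFKFB4 is a bifunctional kinase and phosphatase that sets the level of an activator of glycolysis, and BNIP3 is a receptor for the removal of mitochondria by autophagy.

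PFKFB4 had 7.20, 7.20 and 6.99 at 3 h and 7.42, 7.27 and 7.17 at 6 h with aminaphtone. In the control it had 7.02, 6.83 and 7.35 at 3 h and 8.85, 8.44 and 8.83 at 6 h. The aminaphtone groups overlapped, while every control array at 6 h lay at least a unit above every other array of these 4 groups. Its changes were 0.16 and 1.64, and the difference between them was -1.48 ± 0.23 (SE; adjusted p 0.0474, limma, Benjamini-Hochberg).

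BNIP3 had 10.47, 10.46 and 10.34 at 3 h and 10.86, 10.57 and 10.45 at 6 h with aminaphtone, and these overlapped. In the control it had 10.35, 10.57 and 10.82 at 3 h and 12.12, 11.80 and 11.98 at 6 h, with no overlap. Its changes were 0.20 and 1.39, and the difference was -1.18 ± 0.18 (SE; adjusted p 0.0474). Both calls lay close to the threshold. They were lost when the 12 arrays at 3 and 6 h were fitted alone (adjusted p 0.0824 for PFKFB4 and 0.167 for BNIP3), with the replicate number as a block (0.205 for both), and with arrays centred on their medians (0.0807 for both). PFKFB4 passed in 4 and BNIP3 in 5 of the 18 fits without 1 array: both passed without control 1 h replicate 1 or 2, control 3 h replicate 3 or control 6 h replicate 2, and BNIP3 also without aminaphtone 6 h replicate 1. The highest adjusted p was 0.265, without control 6 h replicate 1.

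The 6 genes that followed by p did not pass. DIPK2A had a difference between intervals of -0.92 (adjusted p 0.110), with changes of -0.0075 with aminaphtone and 0.91 in the control. HILPDA, a lipid droplet protein, had changes of 0.14 and 1.20, and ENO2, a glycolytic enolase, changes of -0.14 and 0.98. STC1, stanniocalcin 1, had changes of 0.05 and 0.98. POFUT4, a protein fucosyltransferase, had 0.19 and 0.90, and TMEM41A had -0.06 and 0.57. For these 5 the adjusted p of the difference was 1. In HILPDA, ENO2, STC1 and POFUT4, all 3 control arrays at 6 h lay above all 3 aminaphtone arrays at 6 h. In HILPDA they were 10.39, 9.94 and 10.06 against 9.15, 8.94 and 9.10. PFKFB4, BNIP3 and these 6 genes were picked by a test on the same arrays, so such separation is a description and no further support. The share of all clusters separated in this way was not counted.

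**Figure D4:**
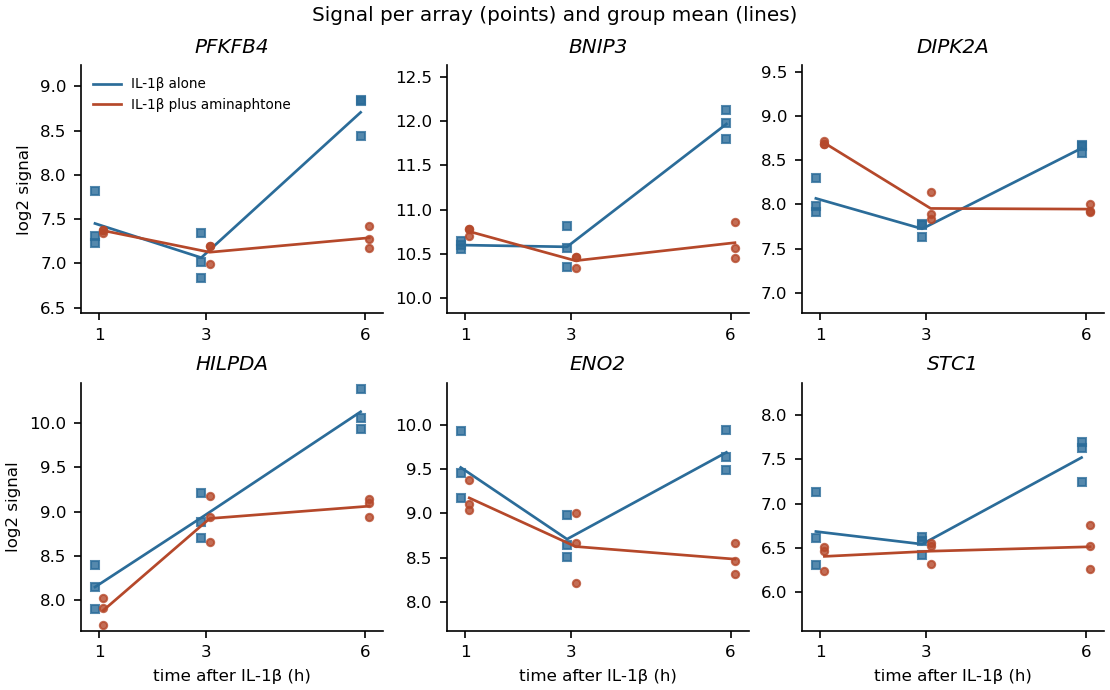
Signal (log2) per array at 1, 3 and 6 h for 6 of the 8 genes with the smallest p for the difference between intervals; points are arrays, set slightly apart by treatment, and lines join group means. From 3 to 6 h the control lines climb, to a mean of 8.71 for PFKFB4, while the aminaphtone lines stay near their 3 h level.

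The wider hypoxia list had 35 genes tested. PFKFB4 and BNIP3 are among these genes, so they are counted again in the values of this list. Values without them are not given, and the list was chosen with earlier results of these data known. With aminaphtone STC2 passed in the higher direction (0.0253% of all clusters did) and ANGPTL4 in the lower (0.241%), and the median was 0.03. In the control 7 passed in the higher direction, against 0.348% of all clusters, and none in the lower. The control median was 0.36. The change was lower with aminaphtone in 32 of the 35 genes (91.4%), against 55.9% over all clusters tested, and the median difference between intervals was -0.37, against -0.02. That median stayed between -0.44 and -0.31 under every alternative run. In the 22 glycolysis genes none passed with aminaphtone. In the control 3 passed in the higher direction, against 0.348% of all clusters. The medians were -0.11 with aminaphtone and 0.12 in the control. The change was lower with aminaphtone in 21 of these 22 genes, with a median difference between intervals of -0.21. HK2, a hexokinase, had changes of 0.43 and 1.15, and PDK1, the kinase that switches off pyruvate dehydrogenase, had 0.10 and 1.09. Shares above that of all clusters were also present in lists without a call in this test, at 88.5% of the autophagy and lysosome genes, 84.4% of the ribosomal protein genes, 82.4% of the heat shock protein genes, 81.0% of the p53 targets and 80.8% of the genes of MYC and ribosome biogenesis, with median differences of -0.15, -0.05, -0.09, -0.13 and -0.13. The genes of a list share the same arrays, so they are not independent of each other, and whether these lists differ from each other was not tested. KDM3A, a histone demethylase, had 0.75 (adjusted p 0.331) with aminaphtone, VEGFA -0.29 (adjusted p 0.705) and PFKFB3 -0.36 (adjusted p 0.401).

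**Figure D5:**
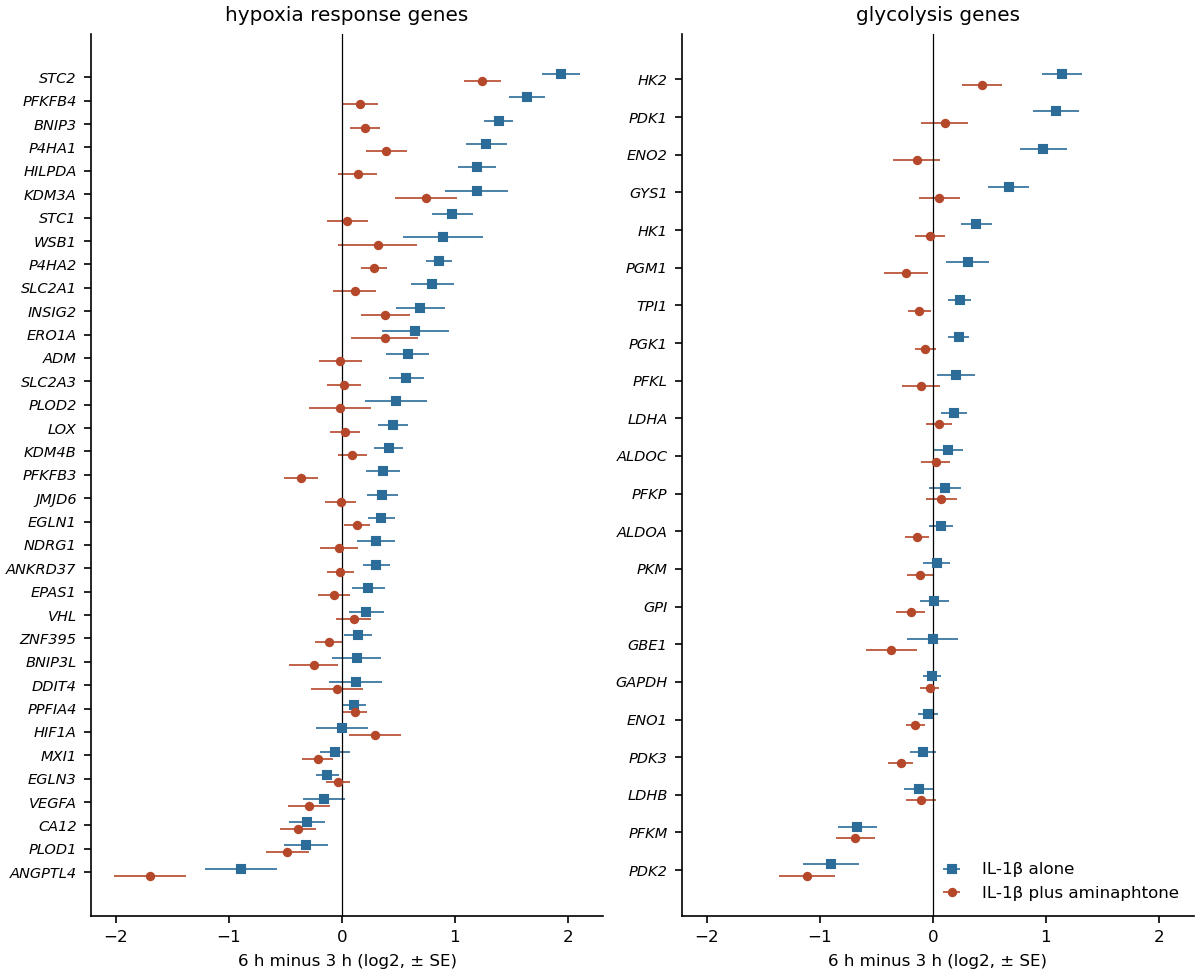
Difference between 6 and 3 h (log2, ± SE of the limma fit) of each hypoxia gene (left) and glycolysis gene (right) tested, with aminaphtone (circles) and IL-1β alone (squares), ordered by the control value. The circles lie left of the squares in 32 of 35 and 21 of 22 genes, while ANGPTL4 has the lowest circle, at -1.70, and STC2 the highest, at 1.24.

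Promoter sequence was available from RefSeq (GRCh38.p14) for 18 of the genes named as rising, falling or differing between intervals. Others, among them MMP1, SLC7A2, MTSS1, HILPDA and STC1, had none, so the shares below leave them out. The 250 bases before the annotated start were searched on both strands for ACGTG, a form of the HIF core. The first base of that core can also be G, and the form GCGTG was not searched. A match was found in 5 of the 18 (27.8%), namely BNIP3, ENO2, ANGPTL4, POFUT4 and TMEM41A, and in 18.7% of the 27305 promoters of that length. The stretches of BNIP3 (chr10:131981924-131982173, minus strand), PFKFB4 (chr3:48556804-48557053, minus strand), ENO2 (chr12:6914330-6914579, plus strand) and ANGPTL4 (chr19:8363905-8364154, plus strand) are shown 5′ to 3′, to set PFKFB4 and BNIP3, which passed the test of the difference between intervals, beside ENO2, which did not, and ANGPTL4, a hypoxia gene that fell. They were chosen after the matches had been seen. Capitals mark ACGTG on either strand.
BNIP3: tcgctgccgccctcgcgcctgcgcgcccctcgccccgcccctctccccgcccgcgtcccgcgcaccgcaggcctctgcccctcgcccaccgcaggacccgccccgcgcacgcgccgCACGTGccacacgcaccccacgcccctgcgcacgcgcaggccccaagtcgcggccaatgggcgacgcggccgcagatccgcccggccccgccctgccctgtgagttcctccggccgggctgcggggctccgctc
PFKFB4: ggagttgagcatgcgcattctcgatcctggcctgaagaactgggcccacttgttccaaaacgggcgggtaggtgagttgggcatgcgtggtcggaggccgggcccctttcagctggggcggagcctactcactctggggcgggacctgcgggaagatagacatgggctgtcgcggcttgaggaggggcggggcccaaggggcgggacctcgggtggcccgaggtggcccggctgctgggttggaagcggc
ENO2: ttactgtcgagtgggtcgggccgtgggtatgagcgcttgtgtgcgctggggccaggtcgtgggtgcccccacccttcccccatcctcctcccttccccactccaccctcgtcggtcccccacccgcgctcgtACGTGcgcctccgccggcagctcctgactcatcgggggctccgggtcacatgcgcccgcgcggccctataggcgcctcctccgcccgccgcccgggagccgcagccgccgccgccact
ANGPTL4: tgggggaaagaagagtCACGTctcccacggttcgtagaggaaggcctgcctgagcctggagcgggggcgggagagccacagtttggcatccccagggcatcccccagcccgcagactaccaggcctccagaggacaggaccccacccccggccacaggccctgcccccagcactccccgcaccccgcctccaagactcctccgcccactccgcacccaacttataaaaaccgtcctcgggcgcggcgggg
BNIP3 holds 2 matches, which overlap on opposite strands as CACGTG, and ENO2 and ANGPTL4 hold 1 each. PFKFB4 holds no ACGTG in this window, but its stretch contains GCGTG, so it does not lack every form of the core. In the glycolysis list the motif was present in 10 of 22 promoters (45.5%). The hypoxia list is not given, because only 26 of its 35 genes had a promoter in the table. The sterol regulatory element TCACNCCAC was present in 1 of 20 cholesterol genes (5.0%) and in 0.875% of all promoters, and in none of the 18 named genes. The antioxidant response core TGACNNNGC was present in 1 of the 18 (5.56%), against 11.0% of all promoters, and the TATA box TATAAA in 2 (11.1%), against 11.1%. A match is a stretch of letters and does not show that a factor binds there.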

How the data were processed

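Log2 signals of 28869 transcript clusters were taken from the deposited table, which the authors made with RMA in Affymetrix Expression Console, per the submitters' processing notes; versions are not given in the sources used here. RMA forces similar distributions on all arrays, so a shift common to most genes would not be seen. No number of reads lies behind these values; 3 arrays a group limit the precision. Groups follow the sample titles. A platform annotation named 21062 clusters, 19310 with a single symbol, updated through RefSeq gene IDs for 19279. Its genome build is not stated, so no array coordinates are given. The 15796 annotated clusters with a mean above the 25th percentile were fitted with limma 3.58.1 in R 4.3.3 (lmFit, eBayes; 1 mean per group over 18 arrays, 12 residual degrees of freedom), with two-sided p-values adjusted by Benjamini-Hochberg and a threshold of 0.05. The script was tested on simulated data. Lists used the brightest cluster of each gene.

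Named were up to 15 rises and 15 falls past the threshold with a single symbol and no overlap, the 8 smallest p of the difference between intervals, up to 5 members by p of each list with a call (2 otherwise) and a fixed set of IL-1β, vascular and stress genes; a gene whose clusters opposed each other was not named. The comparison and lists were chosen with earlier results of these data known. Alternatives changed the arrays fitted, variance model, centring, filter, replicate block and array weights, and left out each array.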

Additional observations from a re-analysis of the deposited data

Results flagged for a closer look

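The change from 3 to 6 h differed between the treatments in 2 genes by a direct test of that difference (limma, Benjamini-Hochberg, adjusted p 0.0474 for both). The value for PFKFB4 was -1.48, with changes of 0.16 under aminaphtone and 1.64 in the control. The value for BNIP3 was -1.18, with changes of 0.20 and 1.39. Over their alternatives the adjusted p of PFKFB4 ranged from 8.15e-06 (array weights) to 0.265 and that of BNIP3 from 1.45e-05 to 0.265. The direction stayed the same in each of them, though many of these alternatives leave the difference itself unchanged.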

How the results depend on the processing

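The number of clusters past the threshold changed with the fit. No difference of a named gene that passed in the reported fit changed sign under any alternative run. The groups of these genes do not overlap, so leaving out or weighting arrays could not change a sign. Most other alternatives leave the difference itself unchanged, so the constant signs say little about stability. With aminaphtone, the count of 42 became 164 with only its own 6 arrays, 7117 with array weights, 406 without the 3 control 1 h arrays and 187 with the 12 arrays at 3 and 6 h. For the control interval, the count of 81 became 166, 3713, 441 and 276 under the same settings. For the difference between intervals, the count of 2 became 0 with only the 12 arrays compared, with trended and robust variance and with centred arrays. It was also 0 with no filter and with the stricter filter, which PFKFB4 did not pass, so it was not tested there. The count became 3 without the 3 control 1 h arrays and 1917 with array weights. The weights ranged from 0.0747 to 51.9 and their estimation did not converge. Leaving out 1 array gave 4 to 260, 16 to 309 and 0 to 3 calls for the 3 comparisons. The fits without the 1 h arrays, and the alternatives run on single genes of the difference between intervals, were added after the data were seen. With the replicate number as a block, the aminaphtone count was 37, 30 of them shared with the fit without it, and the difference between intervals gave 0 calls. Deviations of same-numbered aminaphtone arrays at 3 and 6 h correlated at 0.662, -0.27 and 0.691, and 4 of 6 arrays correlated best with their own number. For the control they correlated at -0.23, -0.204 and 0.0157, and 0 of 6 did so. Between treatments the values were -0.106, 0.519 and -0.0106 at 3 h, and 0.456, -0.0862 and 0.711 at 6 h. The reported fit did not take the numbers as pairs, and these values do not settle whether they are. Among 32 list medians, 8 of 864 values moved by more than the spread between arrays. Most of these settings could not move a median, because they leave the group means compared unchanged. Only centring, the stricter filter, array weights and leaving out 1 of the 6 arrays compared could do so. The count of 8 of 864 therefore says little about stability. Precision is limited by 3 arrays a group, and signal over background was not analysed here.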
